A study of Arabidopsis thaliana with 6 samples.

Results

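The 7 loci described here are Arabidopsis defence genes of the salicylate and camalexin pathways: PR1 (AT2G14610), PR2 (AT3G57260), PR5 (AT1G75040), PAD3 (AT3G26830), PAD4 (AT3G52430), EDS1 (AT3G48090) and ICS1 (AT1G74710). They were chosen by locus identifier, 7 of the 33602 loci counted, and not by a rule on their values, but with earlier results of these data known. RNA was sequenced from sorted cells that the series describes as stomatal lineage ground cells, the larger daughters of the asymmetric divisions that build the leaf epidermis. Plants were of the Columbia ecotype, 9 days post germination, given 2 days of cold before growth at 22 °C with 16 h of light and 8 h of dark, and true leaves were taken. Each line carried a YFP fusion: BRXp:BRX-YFP (BRX), BRXL2p:BRXL2-YFP (BRXL2) or myrBRXp:myrBRX-YFP (myrBRX), with 2 libraries per line. All samples came from plants with such a fusion; whether the endogenous genes were intact, how many transgenic plants or events stood behind a line, and the sorting gate were not stated in the sources available. No untransformed plants were analysed here, so the lines are compared with each other.

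Salicylate is a plant hormone of defence against pathogens that feed on living cells. Most of it is made through isochorismate, the product of ICS1 in the plastid. EDS1 and PAD4 form a lipase-like protein pair that relays signals from immune receptors and raises ICS1 transcription. Salicylate binds the NPR receptors, which act with TGA transcription factors to switch on PR1, PR2 and PR5, genes of secreted antimicrobial proteins. Camalexin, a tryptophan-derived antimicrobial compound of Arabidopsis, is completed by the cytochrome P450 encoded by PAD3.

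The libraries held 25817906 to 42113178 counts, and 18174 loci passed the filter on low counts. The targeted genes gave a mixed check of the labels. BRXL2 stood at 1470 ± 136 CPM in its own line (SD, n = 2), above both other lines, whereas BRX was lowest under its own label: 8.92 ± 3.98 CPM, with 27.3 ± 6.45 in the BRXL2 line and 52.5 ± 28.5 in the myrBRX line. CPM here is the count rate against a library size scaled with TMM factors. The 7 stomatal lineage markers listed had counts in at least 1 library each, summing to 211 to 1240 CPM per library. MUTE was at 0 in 1 library labelled BRX. Summed phloem markers were 251 to 475 CPM in BRXL2 and 4.66 to 13.8 CPM in the other 4 libraries. APL, a phloem identity gene, was at 0 in both libraries labelled BRX. SUC2, another of the 5 listed, was not higher in BRXL2, at 1.02 and 3.08 CPM there and 2.08 to 10.1 CPM in the other 4 libraries. The 4 mesophyll markers summed to 252 to 935 CPM. Over genes, which do not count as replicates, the Pearson correlation of log2 CPM within a line was 0.737 for BRX, 0.765 for BRXL2 and 0.88 for myrBRX.

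The members fell into 3 levels of abundance. PR1, PR2 and PAD3 were not detected, with 0 counts in all 6 libraries, which allows at most 3 counts, or 0.0638 to 0.0992 CPM, in a library. PR5 and ICS1 were present at trace levels of at most 1.61 CPM. PAD4 reached 9.52 CPM and EDS1 49.3 CPM. The 6 libraries together held 219584930 counts, and 21.6% of 26712 protein-coding loci were likewise at 0 in all of them. Per kilobase of exon, EDS1 was the highest member in every library, at 4.56 to 19.3 CPM per kilobase, and PAD4 was next in 5 of 6, at 0.566 to 4.22 CPM per kilobase over the 6. The exception was myrBRX 2, in which PR5 stood at 1.47 CPM per kilobase and PAD4 at 0.566. Low levels in bulk samples cannot separate few cells with the transcript from little transcript per cell.

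**Figure D1:**
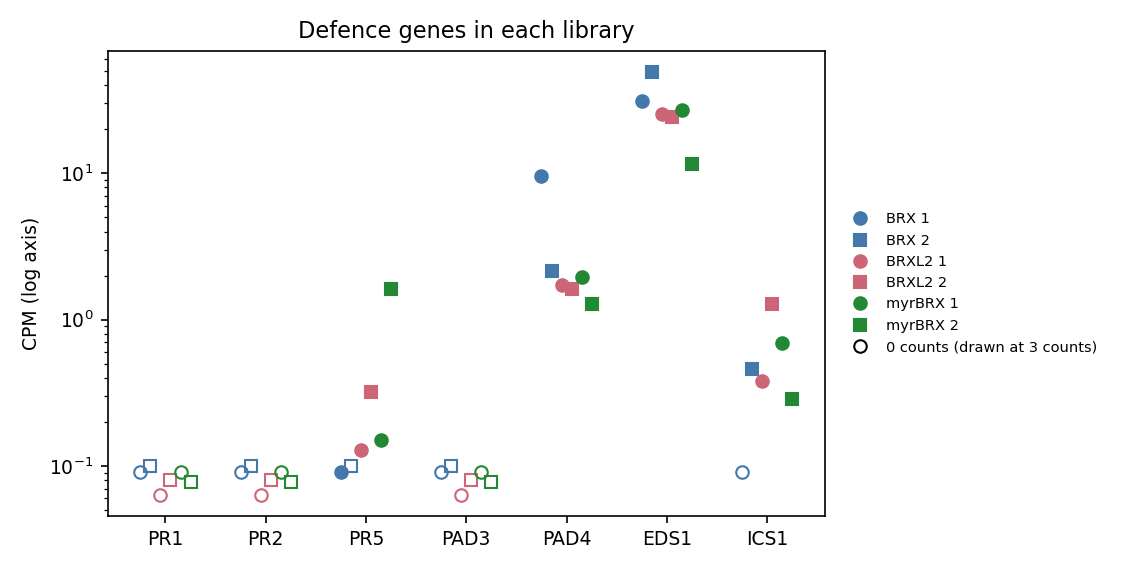
CPM of the 7 genes on a log axis, 1 point per library, coloured by line, with circles for replicate 1 and squares for replicate 2. Open symbols mark 0 counts and are drawn at 3 counts. PR1, PR2 and PAD3 have open symbols in all 6 libraries, and EDS1 lies between 11.6 and 49.3 CPM.

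Most reads of 50 bases or more from these loci have 1 possible place in the genome. In the RefSeq sequence of TAIR10.1, every stretch of 50 exon bases of PR1, PR2, PR5 and PAD3 occurred once in the genome. The shares were 99.7% for PAD4, 99% for EDS1 and 99.6% for ICS1. No annotated gene overlapped any of the 7. The read length and the rule for reads with several alignments are not known here.

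EDS1 has a neighbouring copy on chromosome 3, EDS1B (AT3G48080), and the split of reads between them bears on every EDS1 value. The coding sequences, of 1872 and 1890 bases, were identical at 83.6% of 1863 aligned positions and shared no stretch of 50 bases. Both lie on the minus strand. Their longest identical run, of 44 bases, lies at coding positions 447 to 490 of each. The 120-base window with the most differences lies at coding positions 54 to 173. Within coding sequence, only a read that falls inside an identical run could match both copies exactly, and no run reached 50 bases. Over all exon bases, 99% of 50-base stretches of EDS1 and 99.1% of those of EDS1B occurred once in the genome. Where the others recur was not examined, so some reads outside coding sequence could belong to either copy. Alignments with mismatches were not examined. In the window, capitals mark the 31 positions at which the copies differ.
EDS1 and EDS1B, longest identical run: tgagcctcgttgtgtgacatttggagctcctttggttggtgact
EDS1, most different window: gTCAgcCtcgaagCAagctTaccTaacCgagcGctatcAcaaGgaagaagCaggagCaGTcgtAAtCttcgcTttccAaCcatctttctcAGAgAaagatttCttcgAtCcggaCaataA
EDS1B, most different window: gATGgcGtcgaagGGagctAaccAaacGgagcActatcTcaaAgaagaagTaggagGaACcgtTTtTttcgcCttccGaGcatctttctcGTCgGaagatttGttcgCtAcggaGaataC

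The signalling pair EDS1 and PAD4 was measured in all 6 libraries. EDS1, the partner common to its immune complexes, stood at 31.4 and 49.3 CPM in the libraries labelled BRX, 25.6 and 24.3 CPM in BRXL2, and 27.1 and 11.6 CPM in myrBRX. Both libraries labelled BRX were above those of BRXL2, as for 14.9% of all genes tested, and above those of myrBRX, as for 22.4%. The share of genes with both separations was not computed. The ranges of BRXL2 and myrBRX overlapped. The log2 fold change was -0.69 ± 0.79 for BRXL2 against the libraries labelled BRX (SE; adjusted p = 0.868), -1.06 ± 0.80 for myrBRX against them (adjusted p = 0.551) and -0.36 ± 0.79 for myrBRX against BRXL2 (adjusted p = 0.893), by edgeR's quasi-likelihood test with Benjamini-Hochberg adjustment over all genes tested.

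EDS1B varied more widely than EDS1. It stood at 85.2 and 32.4 CPM in the libraries labelled BRX, 50 and 22.9 CPM in BRXL2, and 8.58 and 2.58 CPM in myrBRX. Both myrBRX libraries were below the other 4, as for 12.1% of all genes tested. EDS1 made up 76% and 81.9% of the pair's counts in myrBRX, against 26.9% and 60.4% in the libraries labelled BRX and 33.9% and 51.4% in BRXL2. This share does not depend on library scaling; it was chosen after its values were seen and was not tested. EDS1B did not pass the test for any difference among the 3 lines (adjusted p = 0.226 by edgeR); over 15 alternatives its adjusted p was 0.04 to 0.844, and it passed with no filter (0.04) and with DESeq2 (0.0494). With EDS1 and EDS1B counted as 1 locus, an alternative chosen after seeing the data, the log2 fold change was -0.69 for BRXL2 and -1.99 for myrBRX against the libraries labelled BRX, and -1.30 for myrBRX against BRXL2 (edgeR adjusted p = 0.867, 0.311 and 0.53).

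**Figure D2:**
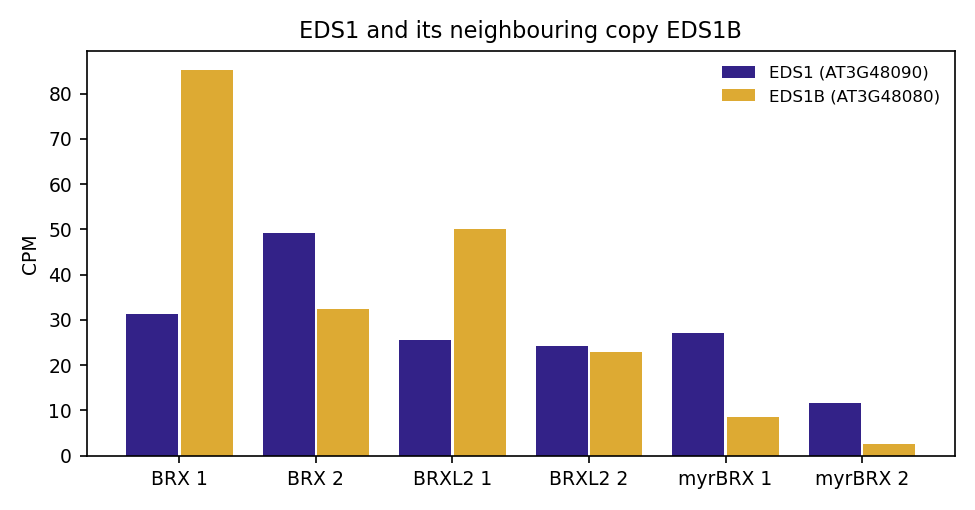
CPM of EDS1 and its neighbouring copy EDS1B in each library, 1 bar per gene and library, on a linear axis from 0. EDS1B is below EDS1 in both myrBRX libraries (8.58 and 2.58 CPM) and above it in BRX 1 (85.2 CPM) and BRXL2 1 (50 CPM).

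PAD4, which pairs with EDS1, stood at 9.52 and 2.15 CPM in the libraries labelled BRX, 1.72 and 1.63 CPM in BRXL2, and 1.96 and 1.28 CPM in myrBRX. A single library, BRX 1, was high, and the other 5 lay between 1.28 and 2.15 CPM. The log2 fold change was -1.80 ± 1.44 for BRXL2 against the libraries labelled BRX and -1.85 ± 1.44 for myrBRX against them (edgeR adjusted p = 0.775 and 0.566); without BRX 1 these were -0.36 and -0.41. Between myrBRX and BRXL2 it was -0.05 ± 1.40 (edgeR adjusted p = 0.992). Summed epidermal markers were also high in BRX 1. The 4 listed summed to 6190 CPM there and to 1760 CPM in BRX 2, against 879 to 1310 CPM in BRXL2 and 546 to 764 CPM in myrBRX. ATML1, 1 of the 4, was not high in BRX 1, at 106 CPM within a range of 90.1 to 132 CPM over the 6 libraries. Chloroplast and mitochondrial loci took 5.34% and 3.77% of counts under the label BRX and 0.558% to 2.32% in the others. The part of either in the EDS1 and PAD4 values was not tested.

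ICS1, the entry enzyme of salicylate synthesis, was near the limit of detection. It stood at 0 and 0.463 CPM in the libraries labelled BRX, 0.383 and 1.28 CPM in BRXL2, and 0.692 and 0.286 CPM in myrBRX, from 114 counts in all. The lines overlapped. The log2 fold change was 1.84 ± 2.44 for BRXL2 and 1.07 ± 2.40 for myrBRX against the libraries labelled BRX, and -0.76 ± 2.37 for myrBRX against BRXL2 (edgeR adjusted p = 0.889, 0.864 and 0.927). Without BRX 1 the fold changes against the label BRX were 0.84 and 0.08, and without BRX 2, 7.98 and 7.22. That of BRXL2 was 0.72 without BRXL2 2, and that of myrBRX 0.31 without myrBRX 1 and 1.63 without myrBRX 2. Its relative ICS2, another isochorismate synthase gene with 79.7% of aligned coding bases identical, stood at 0 to 1.14 CPM (edgeR adjusted p = 0.87 for any difference).

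PR5, the thaumatin-like protein gene, was the sole PR member with counts. It stood at 0.0915 and 0 CPM in the libraries labelled BRX, 0.128 and 0.321 CPM in BRXL2, and 0.15 and 1.61 CPM in myrBRX. Of its 88 counts, 62 came from myrBRX 2. The libraries labelled BRX held 3 counts between them, and the ratio to them was 4.48 for BRXL2 (counting interval 1.53 to 21.7) and 19.6 for myrBRX (6.72 to 95.3), with edgeR adjusted p = 0.871 and 0.491. The fitted log2 fold change of myrBRX against the libraries labelled BRX was 4.16, with 1.60 without myrBRX 2 and 8.05 without BRX 1; that of BRXL2 was 2.19, with 1.26 without BRX 2 and 6.08 without BRX 1. The log2 fold change of myrBRX against BRXL2 was 1.96 ± 2.46 (edgeR adjusted p = 0.785) and turned to -0.57 without myrBRX 2. The intervals are 95% exact Poisson intervals on the 3 counts and cover counting error only.

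No tested member passed a comparison. Of the 7 members, 4 passed the filter and were tested; PR1, PR2 and PAD3 could not be. At an adjusted p under 0.05 edgeR called 0 of the 4 between BRXL2 and the libraries labelled BRX, where it called 0.0935% of all genes tested. It called 0 of 4 between myrBRX and the libraries labelled BRX, where it called 0% of all genes. It called 0 of 4 between myrBRX and BRXL2 (0.0495% of all genes) and 0 of 4 for any difference among the lines (0.226%). With so few calls in all, 0 of 4 is no result about the members. At an unadjusted p under 0.05 edgeR also had 0 of 4 in each comparison, against 8.85%, 14.2% and 12.4% of all genes, and limma-voom called 0 members and 0% of all genes. DESeq2 called 0 of 4 in each of the 3 comparisons, where it called 3.54%, 8.07% and 6.32% of genes with an adjusted p. For any difference it called neither PAD4 nor EDS1 (8.67% of genes) and gave no adjusted p for PR5 or ICS1.

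The ranges of the lines separated for some members, at shares that many genes reach. PAD4 and EDS1 were each lower in the 2 BRXL2 libraries than in the 2 labelled BRX, a separation that 14.9% of all genes showed, and lower in both myrBRX libraries, which 22.4% showed. PR5 was higher in both BRXL2 libraries (18.3% of all genes) and in both myrBRX libraries (26.7%), but on few counts. Its counts were 3 and 0 in the libraries labelled BRX, 6 and 12 in BRXL2, and 5 and 62 in myrBRX. The PR5 separation thus lies between 3 counts, the floor, and 5 or 6 counts, and cannot show a difference between the lines. Between myrBRX and BRXL2 no member separated, against 24.3% of all genes higher and 24.7% lower.

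**Figure D3:**
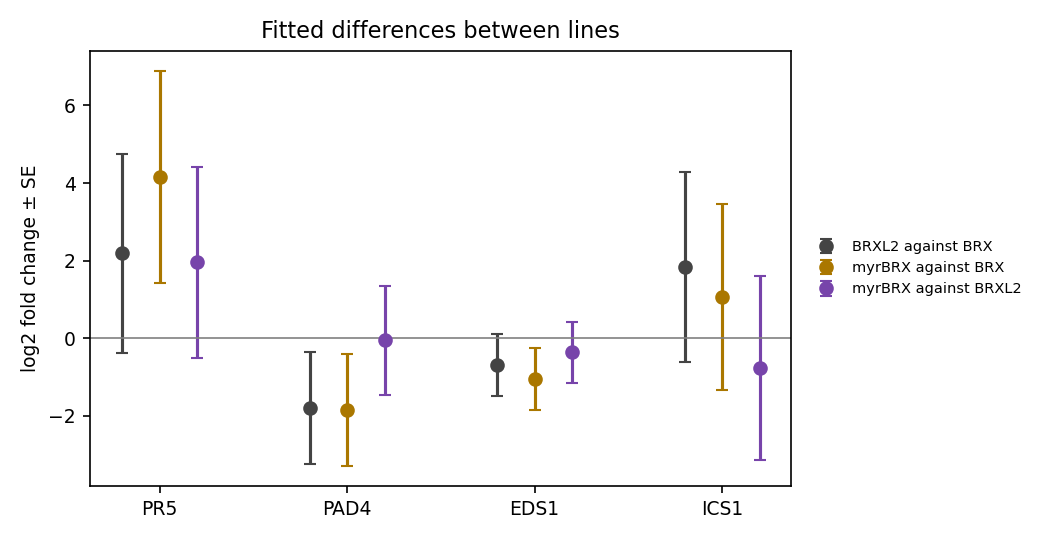
Fitted log2 fold changes ± SE from edgeR for the 4 tested genes in the 3 comparisons, with 0 as a grey line. The SE of PR5 and ICS1 is over 2 on the log2 scale, and that of EDS1 is 0.79 to 0.80.

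Pearson correlations of log2 CPM (prior count 2) between the tested members over the 6 libraries ranged from -0.986, between PR5 and EDS1, to 0.423, between PAD4 and EDS1. These values describe 6 libraries that differ in depth and composition, and PR5 and ICS1 are near 0 in most. Among 7835 other nuclear genes whose log2 CPM averaged 3 or more, those closest to EDS1 were AT4G35940 (0.986), LPAT5, a lysophospholipid acyltransferase gene (0.977), and AT5G20170 (0.976). The closest to PAD4 were AT1G07300 (0.996), the splicing factor gene RSZ22 (0.994) and QQT1 (0.993). For ICS1 they were KT1, a potassium channel gene (0.99), ABCB2 (0.989) and AT1G71110 (0.987), and for PR5 AT3G12320 (0.995), AT5G62260 (0.983) and EMB2024 (0.983). Correlations over 0.95 were reached by 15 genes for EDS1, 52 for PAD4, 31 for ICS1 and 9 for PR5.

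Promoters of the members were searched on both strands, from 250 bases before to 50 after the annotated gene start in TAIR10.1. TTGAC, the core of the W-box bound by WRKY factors, occurred in 5 of 7 (not PAD3 or ICS1) and in 50.5% of 27443 protein-coding genes. TGACG, the core bound by TGA factors, occurred in 0 of 7 and in 23.1% of genes, and GCCGCC, the GCC-box of ethylene response factors, in 0 of 7 and 2.57%. TTGAC and TGACG overlap where TTGACG occurs. Sequence beyond this window was not searched, so 0 of 7 does not show that a promoter lacks the site.

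The surrounding pathways were read from 8 lists of 60 further genes: salicylate synthesis, response and inactivation, the EDS1 network, pipecolate synthesis, camalexin, jasmonate and ethylene defence, and pattern immunity. Of the 60, 9 were at 0 in all 6 libraries (15%, against 21.6% of protein-coding loci), 11 had counts but did not pass the filter, and 40 were tested. Those at 0 were PBS3, WRKY54, DLO1, ALD1, FMO1, PR3, PR4, PDF1.2a and PDF1.2b. PBS3 conjugates isochorismate on the way to salicylate, ALD1 and FMO1 make the mobile defence signal N-hydroxypipecolate, and the PDF1.2 genes encode defensins of the jasmonate and ethylene branch. All 7 genes of the EDS1 network and 8 of 9 of pattern immunity passed the filter and were tested. ADR1, a helper immune receptor gene of the EDS1 network, had 0 counts in BRXL2 2 and 1 in BRX 2, and FRK1, a pattern response gene, had 0 in all 4 libraries of the BRX and BRXL2 lines.

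**Figure D4:**
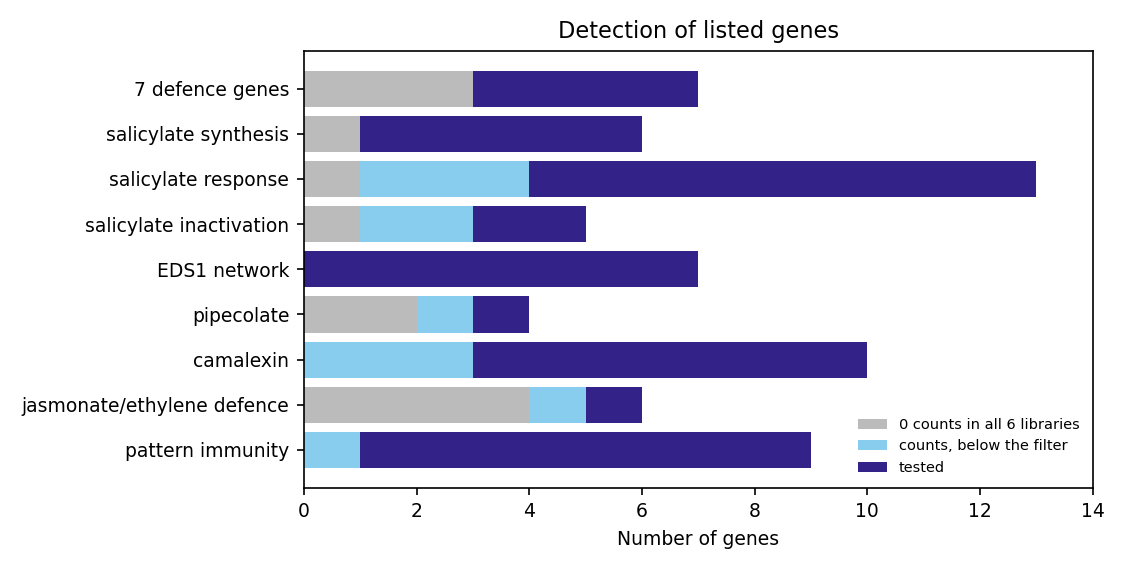
Number of genes in each list, split into those with 0 counts in all 6 libraries, those with counts that did not pass the filter, and those tested. All 7 EDS1 network genes were tested, while 4 of 6 jasmonate and ethylene defence genes were at 0.

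Genes of the camalexin list spanned a wide range of levels; those named here beside GGP1 and GSTF6 were chosen after their values were seen. WRKY33, the factor known to bind and activate PAD3, stood at 1740 and 3080 CPM in the libraries labelled BRX, 1670 and 909 CPM in BRXL2, and 2100 and 1590 CPM in myrBRX. ANAC042, another regulator of the list, was at 0.214 to 3.97 CPM. Of the transporter genes, ABCG36 ranged from 5680 to 68500 CPM, highest in BRX 2, and ABCG34 from 39.9 to 208 CPM. The cytochrome P450 genes of the pathway were near 0. The early genes CYP79B2 and CYP79B3 reached 1.25 CPM and 0.183 CPM, CYP71A13 had 1 count in all, CYP71A12 had 17 counts in myrBRX 1 and 2 in myrBRX 2, and PAD3 had 0. GGP1, a peptidase gene of the middle steps, stood at 18.9 and 109 CPM in the libraries labelled BRX, 55.4 and 85.8 in BRXL2, and 338 and 466 in myrBRX. The glutathione transferase gene GSTF6 stood at 0.153 and 13.2, 4.25 and 16.5, and 34.3 and 142 CPM in the same order. Both myrBRX libraries were above the other 4 for both genes, as for 14.5% of all genes tested; the genes were named for a low p, so such a separation is partly built in. Neither passed the test for any difference (edgeR adjusted p = 0.245 and 0.315). Of GSTF6, 89.7% of 50-base exon stretches occurred once in the genome, so part of its reads could belong to a close copy.

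Receptors and regulators of the salicylate pathway were detected in the libraries in which PR1 and PR2 were at 0. NPR3, a salicylate receptor that represses defence genes, stood at 121 and 326 CPM in the libraries labelled BRX, 38.4 and 84.2 in BRXL2, and 182 and 312 in myrBRX (edgeR adjusted p = 0.425 for any difference). CBP60g, a transcription factor that raises ICS1, stood at 11 and 12.3, 15.8 and 16.2, and 39.8 and 44.6 CPM in the same order (0.374, edgeR). SARD1, also of the salicylate synthesis list, was at 0.15 to 3.48 CPM (edgeR adjusted p = 0.833). The replicates of CBP60g lay close together in every line, with both myrBRX libraries above the other 4 (14.5% of all genes). CBP60g was named for the lowest p of its list, so close replicates and separation are partly built in. NIMIN2, an NPR1-binding protein gene, had 112 counts in myrBRX, 2 in the libraries labelled BRX and 0 in BRXL2; its level in myrBRX was at least 44-fold that in BRXL2, with a floor of 3 counts over the group, and the ratio to the libraries labelled BRX was 49.3 (counting interval 13.6 to 407). It did not pass for any difference (edgeR adjusted p = 0.289).

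Of 5 genes that inactivate salicylate, 2 were tested. UGT74F2, which attaches glucose to salicylate, stood at 0.0915 and 2.98 CPM in the libraries labelled BRX, 0.702 and 0.803 in BRXL2, and 23 and 23.2 in myrBRX. DMR6, a salicylate hydroxylase gene, stood at 0.275 and 1.85, 0.34 and 0.161, and 6.11 and 5.47 CPM in the same order. For both, the myrBRX libraries lay above the other 4 (14.5% of all genes). By edgeR the adjusted p for any difference was 0.174 for UGT74F2 and 0.354 for DMR6. Over 15 alternatives that of UGT74F2 was 0.00257 to 0.328, and it passed with no filter (0.00257), with DESeq2 (0.005) and without BRX 2 (0.0141).

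In the other lists, SAG101, the alternative partner of EDS1, stood at 12.3 and 43.8 CPM in the libraries labelled BRX, 2.32 and 13 in BRXL2, and 54.5 and 58 in myrBRX (edgeR adjusted p = 0.336 for any difference). BIK1, a kinase that acts below pattern receptors, stood at 6.47 and 69.4, 22.9 and 66.6, and 168 and 317 CPM (0.317, edgeR). The pattern response gene NHL10 was at 0.061 to 7.52 CPM, the pipecolate gene SARD4 at 1.53 to 14.6 CPM and the ethylene response factor gene ERF1 at 0 to 1.77 CPM, with edgeR adjusted p of 0.474, 0.714 and 0.387. SAG101, BIK1, NHL10 and ERF1 were highest in both myrBRX libraries (14.5% of all genes). SAG101, BIK1 and NHL10 were named for a low p, and SARD4 and ERF1 were each the only 1 tested of their lists.

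**Figure D5:**
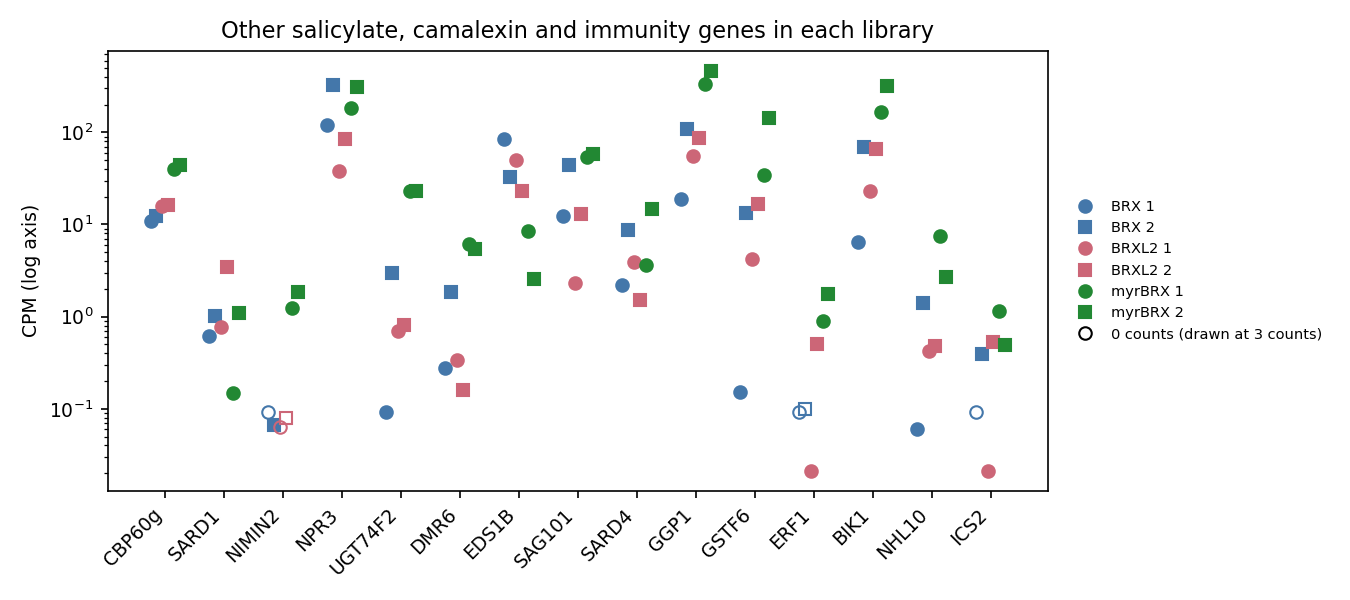
CPM of the 15 further genes named by rule, on a log axis, 1 point per library, coloured by line, with circles for replicate 1 and squares for replicate 2. Open symbols mark 0 counts and are drawn at 3 counts. CBP60g, UGT74F2, DMR6, GGP1, GSTF6 and BIK1 are highest in both myrBRX libraries (for UGT74F2, 23 and 23.2 CPM) and EDS1B is lowest there. Lists with more than 2 tested genes gave those of lowest p, so such separation is partly built in. Of all genes tested, 14.5% and 12.1% separate in these directions.

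Over the 40 tested genes of the 8 lists, edgeR called 0 in each comparison at an adjusted p under 0.05. At an unadjusted p under 0.05 there were 0 of 40 for BRXL2 against the libraries labelled BRX (8.85% of all genes), 6 higher and 1 lower for myrBRX against them (14.2%), and 7 higher and 2 lower for myrBRX against BRXL2 (12.4%). These shares cover either direction. Of all 18174 genes tested, 1287 were higher and 1291 lower for myrBRX against the libraries labelled BRX. For myrBRX against BRXL2, 994 were higher and 1261 lower. The median log2 fold change was -0.40, 0.47 and 1.30 in that order, against 0.03, -0.03 and -0.15 over all genes, and with genes at 0 set to their bound it was -0.08, 0.47 and 1.30. Over 16 alternatives the medians ranged from -0.71 to 0.34, from 0.20 to 1.82 and from 0.94 to 1.59; without BRX 2 the first of these was 0.34 and the next 1.82. By list, the median of myrBRX against BRXL2 is given with its range over the alternatives. It was 4.72 for salicylate inactivation (2 genes; 1.22 with no filter, to 4.99) and 1.55 for camalexin (7 genes; 1.22 to 2.39). It was 1.06 for pattern immunity (8 genes), 0.43 without BRXL2 1 and 1.92 without BRXL2 2. Salicylate response (9 genes) had 0.96 and turned to -0.57 with no filter, and salicylate synthesis (5 genes) had 0.37 and turned to -0.63 without myrBRX 2, reaching 1.43 without BRXL2 2. The EDS1 network (7 genes) had -1.36, with -0.57 without BRXL2 1. The 1 tested pipecolate gene had 1.76, with 0.44 without myrBRX 2 and 5.18 without myrBRX 1. The 1 tested jasmonate and ethylene gene had 2.33, with 1.39 without BRXL2 1 and 5.77 without BRXL2 2.

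Against the libraries labelled BRX, the medians of myrBRX were 3.18 for salicylate inactivation, 0.89 for pattern immunity, 0.74 for pipecolate, 0.54 for camalexin, 0.40 for salicylate synthesis, 0.15 for salicylate response and -1.37 for the EDS1 network. Those of BRXL2 were -1.54, 0.13, -1.02, -0.88, 0.46, 0.00 and -0.71 in the same order. The jasmonate and ethylene gene, ERF1, was at 0 in both libraries labelled BRX, and its bounds were 4.84 for myrBRX and 2.32 for BRXL2. Wherever an alternative gave a value, the sign held for the EDS1 network and for jasmonate and ethylene defence in both comparisons. It also held for salicylate inactivation, camalexin and pattern immunity in myrBRX. For the rest the sign turned under at least 1 alternative. Without BRX 2, salicylate inactivation was 6.16 in myrBRX and 1.44 in BRXL2.

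Marker levels of other cell types also differed between the lines. The 5 guard cell markers summed to 943 and 424 CPM in myrBRX, 565 and 147 CPM in BRXL2 and 90.1 and 123 CPM in the libraries labelled BRX. Most of the myrBRX sums was TGG1, a myrosinase gene, at 891 and 385 CPM. TGG2, its relative, went the other way, at 0.0301 and 0.0781 CPM in myrBRX, 47.7 and 27.6 CPM in BRXL2 and 3.57 and 5.32 CPM in the libraries labelled BRX (edgeR adjusted p = 0.0365 for myrBRX against BRXL2). The potassium channel gene KAT1 was likewise lower in myrBRX (1.41 and 0.026 CPM) than in BRXL2 (5.74 and 10.3 CPM). OST1 was highest in myrBRX, at 49.4 and 32.1 CPM, against 12.6 and 15.6 CPM in BRXL2 and 1.19 and 3.54 CPM in the libraries labelled BRX. KAT2 overlapped between myrBRX (0.933 and 6.69 CPM) and BRXL2 (9.31 and 0.187 CPM), and was at 0 and 0.0992 CPM under the label BRX. Summed epidermal markers were lowest in myrBRX, but single markers differed: ATML1, an epidermal identity gene, was highest in myrBRX 2 (132 CPM, against 90.1 to 120 CPM in the other 5), and FDH averaged 344 CPM in both myrBRX and BRXL2. The 7 rapid stress genes summed to 2070 to 6760 CPM, highest in myrBRX 1. Their part in the values of the lists was not tested.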

How the data were processed

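Each deposited table gives the raw counts of 1 library by TAIR10 locus, not normalised by the authors. The values show this unit: all are whole, and totals differ between libraries. The submitters' processing notes name Bowtie2 and TAIR10; the counting program, its strand setting and its rule for reads with several alignments are not stated there or in the labels, so antisense reads could be included. Per the labels, each sample was RNA of about 20000 sorted cells, amplified from 20 ng. Amplified reads lacking molecular identifiers do not stand for separate molecules, so intervals and the floor of 3 counts cover counting error only.

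Loci were filtered with filterByExpr (minimum count 10), scaled with TMM factors and tested with edgeR 4.0.16 under R 4.3.3: glmQLFit and glmQLFTest with default settings, two-sided tests, 1 coefficient per line, all 6 libraries in the fit, and Benjamini-Hochberg adjustment over 18174 genes with a threshold of 0.05. The common dispersion was 0.782. An SE is the absolute log2 fold change divided by the square root of the F statistic. The labels name no separate plants or cultures behind the libraries of a line, so p-values measure only the spread between these samples, possibly a technical one. No table was a copy of its replicate (chi-square per gene 532.7 to 814.6). The fit was tested on simulated data with a dispersion far below the measured one, which checked the computation and not the power to find differences in these libraries. Alternatives were RLE and upper-quartile factors, no filter, a stricter filter (50 counts in at least 2 libraries), DESeq2 1.42.0, limma-voom (limma 3.58.1), edgeR's newer fit, the compared libraries alone, the replicate number as a block, organelle loci and AT1G79245 left out, and each library left out in turn.

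The 7 members, the gene lists and the tests were chosen with earlier results of these data known. All members were named, and EDS1B and ICS2 always. From each list the 2 tested genes of lowest p for any difference were named, or all where no more than 2 were tested. Any other gene was picked with its values in view. The genes closest to a member were the 3 of highest correlation. Exon length, promoters and coding sequences came from the RefSeq annotation of TAIR10.1, matched by locus (32835 of 33602 matched); coordinates are not printed, because the reference and the files name different builds. Protein sequences were not used here.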

Additional observations from a re-analysis of the deposited data

How the results depend on the processing

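No member with an adjusted p was called in any of 63 combinations of test and alternative. All 4 had one in 56 of them; PR5 and ICS1 had none under the stricter filter or for any difference with DESeq2, and PR5 none against the libraries labelled BRX on the compared libraries alone. Against the libraries labelled BRX the signs held wherever a value was given, but sizes moved widely. For BRXL2 the ranges were 1.26 to 6.08 (PR5), -2.50 to -0.36 (PAD4), -0.98 to -0.33 (EDS1) and 0.72 to 7.98 (ICS1). For myrBRX they were 1.60 to 8.05, -2.55 to -0.41, -1.79 to -0.55 (EDS1 counted alone) and 0.08 to 7.22. Between myrBRX and BRXL2, where no difference passed, signs turned without myrBRX 2 for PR5 (-0.57), PAD4 (0.21) and EDS1 (0.11), and for ICS1 without BRXL2 2 (0.36) and with the replicate block (0.01). With each library left out in turn, the log2 fold change of myrBRX against BRXL2 was -0.57 to 2.84 for PR5, -0.39 to 0.21 for PAD4, -1.09 to 0.11 for EDS1 and -1.53 to 0.36 for ICS1. The cause was not tested.

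The number of genes called, the background for these statements, depended strongly on the setting. For BRXL2 against the libraries labelled BRX (17 genes) it was 403 with no filter, 4 with the stricter filter, 644 with DESeq2, 0 with limma-voom (1310 at an unadjusted p under 0.05), 0 on the compared libraries alone and 6 to 221 with 1 library left out. For myrBRX against the libraries labelled BRX (0 genes by edgeR, 2578 unadjusted) it was 724 with no filter, 1438 with DESeq2, 2 with the newer fit and 1 to 327 with 1 library left out; limma-voom had 2561 unadjusted. For myrBRX against BRXL2 (9 genes) it was 5 with RLE and 5 with upper-quartile factors, 657 with no filter, 0 with the stricter filter, 1126 with DESeq2, 0 with limma-voom (2285 unadjusted), 26 with the newer fit, 22 on the compared libraries alone and 24 to 119 with 1 library left out. For any difference (41 genes) it was 1423, 26, 1453 and 0 with no filter, the stricter filter, DESeq2 and limma-voom (2227 unadjusted), 173 with the newer fit and 130 to 661 with 1 library left out. With the replicate block the counts were 33, 29, 42 and 266; deviations of same-numbered libraries correlated at 0.0581 to 0.127 between lines, so the numbers were not taken to pair the samples.

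Of the further genes named, GGP1 passed for any difference with DESeq2 (adjusted p = 0.0327), GSTF6 with no filter (0.00139), without BRX 2 (0.0241) and without myrBRX 1 (0.04, edgeR), and BIK1 with no filter (0.0461, edgeR). PR5 and ICS1 rest on 88 and 114 counts over 6 libraries, and PR1, PR2 and PAD3 on 0.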
